A study of Mus musculus with 6 samples.

Results

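Chemokine receptors are 7 genes here: Ccr6, Cx3cr1, Ccr1, Ccr2, Cxcr4, Ccrl2 and Cmklr1, taken by symbol from the 48587 genes of the count table. The set was chosen by the read counts of Ccr6 in wild type against knockout, which were already known, together with related receptors, so the levels of its members in wild type and knockout are given as a description. Counts of calls among them, given further on beside the share of all genes called, support nothing. RNA was measured in sorted microglia, the resident macrophages of the brain, from C57BL/6 mice at postnatal day 42. The 3 samples of genotype wildtype (wild type below) and the 3 of genotype Lyl1 KO (knockout) held about 1000 cells each, and no other allele or agent is named for either genotype. Lyl1 encodes a bHLH transcription factor known from blood and its stem cells, and the comparison asks what its loss does to these cells. The labels say neither that samples came from separate animals nor how the Lyl1 allele was made.

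Chemokines are small secreted proteins that steer the movement of immune cells. Their receptors cross the cell membrane in 7 passes and signal through inhibitory G proteins, after which receptor kinases and arrestins switch them off. In the brain, microglia are known for Cx3cr1, the receptor for the neuronal chemokine fractalkine (Cx3cl1), while Ccr2 is the receptor that brings monocytes out of the bone marrow and is commonly used to tell monocytes from microglia. Ccr6 answers to Ccl20 and is best known from B cells, dendritic cells and a class of helper T cells. Ccr1 binds inflammatory chemokines such as Ccl3, Ccl5, Ccl6 and Ccl9, and Cxcr4 binds Cxcl12. Cmklr1 is the signalling receptor for chemerin (Rarres2), and Ccrl2 binds chemerin without signalling in the classical way.

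Total counts per sample lay between 12753945 and 27378614 reads. The values below are CPM, read counts scaled to a common library total by TMM. This method gives each library 1 scaling factor that allows for differences in composition between libraries. The limit of detection was set at 3 reads, equal to 0.104 to 0.264 CPM depending on the sample, and covers counting error only. Between 12827 and 15652 genes had a read in each sample. Most were detected in sample 3 of the wild type and in knockout samples 2 and 3, at 14923 to 15652, against 12827 to 13085 in the other 3 samples. Xist, the RNA of the inactive X chromosome, reached 348.9 and 412.5 CPM in knockout samples 1 and 3 but only 0.203 to 1.41 CPM in the other 4, in which Y-linked reads exceeded those of Xist. Y-linked reads numbered 110, 6062 and 3034 in wild-type samples 1 to 3 and 7, 3011 and 9 in knockout samples 1 to 3. By these genes wild-type samples 2 and 3 and knockout sample 2 were male, and knockout samples 1 and 3 were not. Wild-type sample 1 is counted with the male samples below, but its 110 Y-linked reads, against 16 of Xist, leave its sex less certain. Lyl1 was read 683, 1399 and 839 times in wild type and 205, 237 and 410 in knockout, lower in every knockout sample but not absent. The microglial markers P2ry12, Tmem119 and Csf1r, a purinergic receptor, a membrane protein and the CSF1 receptor, stood at means of 4842 to 11350 CPM in both genotypes. Aif1, which encodes IBA1, averaged 1152 ± 137 CPM over the wild-type samples and 645.7 ± 109.6 CPM over the knockout samples (SD, n = 3 per genotype, as for every ± below).

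Ccr6 (ENSMUSG00000040899.14) was close to undetected in wild type and clearly present in every knockout sample. It lies on the plus strand of GRCm38 chromosome 17, from 8236043 to 8257141, with 8 exon blocks and no other annotated gene across it. Wild-type samples 1 to 3 had 5, 2 and 0 reads, or 0.441, 0.0795 and 0 CPM. Knockout samples 1 to 3 had 4757, 937 and 3232 reads, or 209.4, 47.6 and 112.4 CPM. The genotypes did not overlap, and the lowest knockout sample stood 108-fold above the highest wild-type sample. Against 7 reads in all of wild type, knockout held 8926, a ratio of pooled levels of 1030, with an exact 95% interval of 499.8 to 2563 for counting error alone. PCR copies are counted as separate reads here, and the spread between samples is left out, so that interval is too narrow. As Ccr6 was chosen on these same reads, the interval is a description and supports nothing. The log2 fold change fitted by edgeR was 9.57 with a standard error of 1.67, a value that depends on the prior count added to so few reads. The knockout samples also differed among themselves: the coefficient of variation of Ccr6 was 66.1%, against a median of 32.6% over the 2332 tested genes within 2-fold of its knockout mean. Counting error at this depth would give 1.83%. Ccr6 was lowest in knockout sample 2, the knockout sample without Xist, and highest in knockout sample 1. With the wild type set against knockout sample 2 alone, the samples with more Y-linked than Xist reads, the log2 fold change was 8.12. The part of sex in the size of the difference was not tested.

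**Figure D1:**
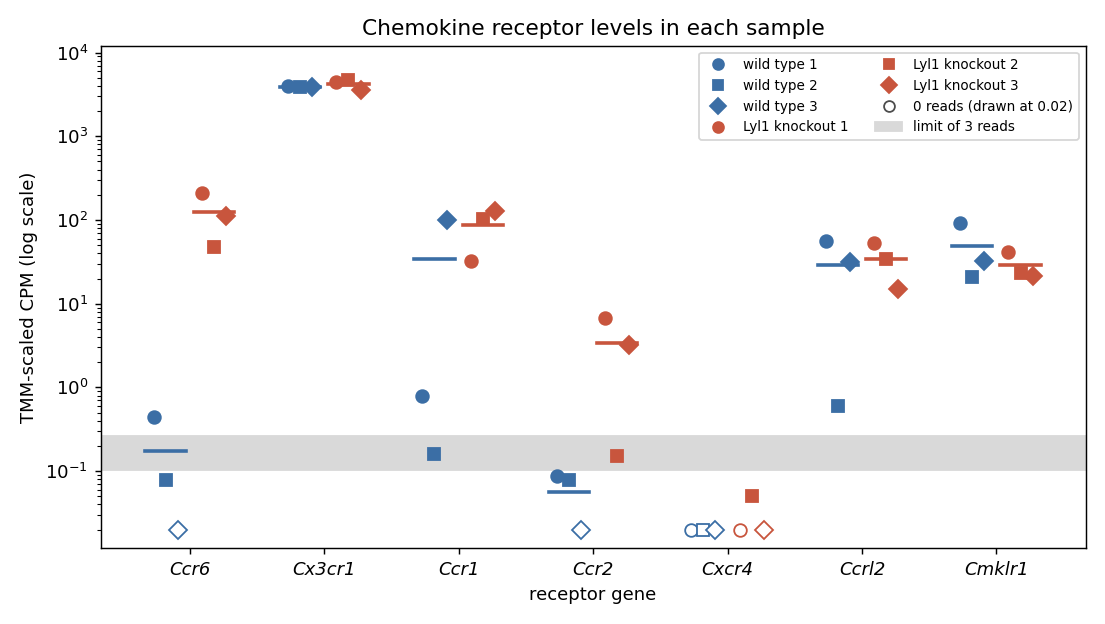
Level of each chemokine receptor gene in TMM-scaled CPM on a log axis, with wild type in blue and Lyl1 knockout in red, symbols for samples 1 to 3 and a short line at each group mean of 0.02 or more. Open symbols have 0 reads and the grey band is the limit that 3 reads set. Ccr6 separates the genotypes, from at most 0.441 CPM in wild type to at least 47.6 CPM in knockout, while Cx3cr1 stays between 3572 and 4761 CPM and Cxcr4 near 0.

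How often such a pattern occurs was counted over the 22005 genes with a read, with limits set after the values of Ccr6 were seen. At most 10 reads in every wild-type sample and at least 500 in every knockout sample were found for 1 gene, Ccr6 itself, or 0.00454% of the genes. The reverse pattern was also found for 1 gene, Def8, again 0.00454%. Both shares are lowered by genes that could not qualify, since only 8691 of the 22005 had at least 500 reads in any sample. Ccr6 passes because the limits were placed around its own values, and that it stands alone depends on the limit of 500. Zfp788, with at most 1 read per wild-type sample, missed that limit through knockout sample 2 alone, at 131 reads. Alkbh8 and Cracr2a, described below, missed it through the same sample, at 233 and 206. How many genes a lower limit would take was not counted. Large gaps between samples of the same genotype were common: 9.78% of the 22005 genes had at most 10 reads in 1 wild-type sample and at least 500 in another, and 5.94% did so in knockout. Of 7332 genes with at least 500 reads in a wild-type sample, 29.3% had at most 10 reads in another wild-type sample, and of 7906 such genes in knockout 16.5% did.

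The genes beside Ccr6 did not share its pattern. Fgfr1op, which encodes a centrosomal protein and ends 39239 bases below Ccr6, was at 53.4, 41.9 and 38.2 CPM in the wild type and 43.7, 69.8 and 67.2 CPM in knockout. Mpc1, a subunit of the mitochondrial pyruvate carrier that begins 25763 bases above it, was at 32.0, 21.7 and 23.6 CPM and at 23.4, 14.1 and 24.0 CPM. Both overlapped between genotypes. By the Pearson correlation of log2(CPM + 1) over the 6 samples, the 5 tested genes most like Ccr6 were Snord17 (r = 0.998), Alkbh8 (0.998), Cracr2a (0.994), Lrrc25 (0.989) and Zfp788 (0.987), and 30 genes reached 0.95. These correlations describe 6 samples of 2 genotypes that share their libraries, and they rest mainly on the gap between genotypes. Alkbh8, a tRNA-modifying enzyme, had 3, 3 and 6 reads in the wild type and 951, 233 and 639 in knockout. Cracr2a, a regulator of calcium entry, had 0, 1 and 5 reads against 906, 206 and 780. As for Ccr6, knockout sample 2 was the lowest of the 3 knockout samples for both. Their choice by likeness to Ccr6 over these samples favours that order, so it is no further likeness.

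Because Lyl1 belongs to the factors that bind E-box sequences with a partner, the start sites of Ccr6 are printed with those letters marked, beside that of Cx3cr1 as a receptor whose genotypes overlapped. All 7 genes had an entry in the RefSeq promoter table for GRCm38.p6. Each sequence runs 5′ to 3′ on the gene's strand over 300 bases around an annotated start, and capitals mark CANNTG, which reads the same pattern on both strands.
Ccr6 first start, chr17:8235793-8236092, plus strand: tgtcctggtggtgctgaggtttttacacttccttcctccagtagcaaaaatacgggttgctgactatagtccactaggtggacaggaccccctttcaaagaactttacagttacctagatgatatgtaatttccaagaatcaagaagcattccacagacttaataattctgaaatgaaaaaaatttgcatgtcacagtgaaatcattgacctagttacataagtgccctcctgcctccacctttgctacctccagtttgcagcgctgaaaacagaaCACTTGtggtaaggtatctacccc
Ccr6 second start, chr17:8242276-8242575, plus strand: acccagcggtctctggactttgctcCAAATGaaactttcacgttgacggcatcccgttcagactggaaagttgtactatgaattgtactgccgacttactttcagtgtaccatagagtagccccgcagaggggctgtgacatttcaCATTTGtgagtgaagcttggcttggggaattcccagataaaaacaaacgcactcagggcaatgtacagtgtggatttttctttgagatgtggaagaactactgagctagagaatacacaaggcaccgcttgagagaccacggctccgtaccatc
Cx3cr1 start, chr9:120068247-120068546, minus strand: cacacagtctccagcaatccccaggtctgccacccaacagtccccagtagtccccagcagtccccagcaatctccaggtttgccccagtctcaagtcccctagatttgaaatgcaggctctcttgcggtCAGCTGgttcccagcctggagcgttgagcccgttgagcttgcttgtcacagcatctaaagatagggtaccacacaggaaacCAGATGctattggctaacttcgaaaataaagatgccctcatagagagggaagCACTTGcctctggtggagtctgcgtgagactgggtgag
The Ccr6 windows held 1 and 2 matches and the Cx3cr1 window 3, and 72.3% of the 32851 promoter windows of that length held at least 1. The narrower forms CAGATG, searched on both strands, and CAGCTG, each also a case of CANNTG, were absent from both Ccr6 windows and present at 1 match each in that of Cx3cr1. They occurred in 17.2% and 16.3% of all windows. The Cxcr4 window held no CANNTG. These are matches of letters, and no binding was measured.

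Cx3cr1, the fractalkine receptor, was the most abundant of the 7 receptors in all samples, also per length of transcript. It lies on the minus strand of chromosome 9, from 119901616 to 120069879. Its level was 4023, 3846 and 3845 CPM in the wild type and 4408, 4761 and 3572 CPM in knockout. Knockout samples lay both above and below the wild type, so the genotypes overlapped. Its fitted log2 fold change came to 0.12 (standard error 0.14). Wild-type samples were close to each other, with a coefficient of variation of 2.62% against a median of 15.0% in 39 genes within 2-fold of its level, while in knockout it was 14.4% against 8.46% in 33 genes. An antisense gene model covers 78 bases of its exons, and reads there cannot be assigned to a strand by this kit. In the other members no annotated gene overlaps an exon.

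Ccr1, a receptor for inflammatory CC chemokines (chromosome 9, 123962124 to 123968692, minus strand), had the highest coefficient of variation of the 7 in wild type. Samples 1 to 3 had 9, 4 and 2102 reads in wild type, or 0.793, 0.159 and 100.3 CPM. Knockout samples had 736, 2044 and 3651 reads, or 32.4, 103.9 and 127.0 CPM. Wild-type sample 3 lay within the knockout range, and samples 1 and 2 lay far below it. That coefficient was 170.8%, above that of 98.5% of the 3714 genes within 2-fold of its level. The fitted log2 fold change came to 1.38 (standard error 1.87). The 3 samples with the most genes detected had the highest levels, 100.3 to 127.0 CPM of Ccr1 in both genotypes. The level did not follow the number of genes throughout. Wild-type sample 1, with 13045 genes, had 0.793 CPM, and knockout sample 1, with 13085, had 32.4 CPM. In the 3 samples with the most genes alone the log2 fold change was 0.21. In the 3 with the fewest genes it was 6.11, and without wild-type sample 3 it was 7.56. It was 0.81 without wild-type sample 2 and 0.82 without wild-type sample 1. The part of library complexity in the difference was not tested.

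**Figure D2:**
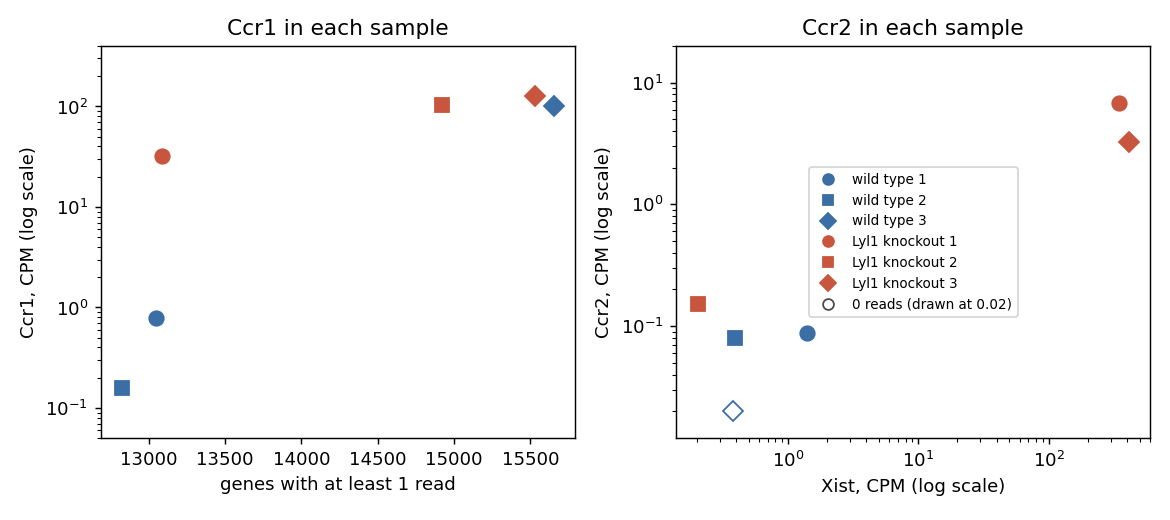
Left, Ccr1 in CPM (log axis) against the number of genes with a read in each of the 6 samples, and right, Ccr2 in CPM against Xist in CPM (both log axes), with wild type in blue and knockout in red. Ccr1 is at 100.3 CPM or more in the 3 samples with the most genes, and Ccr2 exceeds 3 CPM in the pair of knockout samples with Xist, while an open symbol marks 0 reads.

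Ccr2, the monocyte receptor, was at or under the limit of 3 reads in 4 samples and above it in knockout samples 1 and 3. It lies on the plus strand of chromosome 9, from 124101950 to 124113557. Reads were 1, 2 and 0 in wild type and 155, 3 and 93 in knockout, or 6.83, 0.153 and 3.23 CPM in knockout samples 1 to 3. Knockout sample 2 was thus near 0 like the wild type, at 1.73-fold the highest wild-type sample. Pooled, the ratio of knockout to wild type was 67.59, with an exact 95% interval of 22.86 to 330 for counting error alone. That interval is too narrow, as for Ccr6, because PCR copies are counted as separate reads and the spread between samples is left out. The ratio rests on 3 wild-type reads and on 2 knockout samples. Those are the samples with Xist, so sex and the difference between knockout samples cannot be told apart. The gene did not pass the filter on low counts and was not fitted. Of its possible 50-base reads 1.91% also occur in other genes.

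Monocyte markers, summed over 7 genes that include Ly6c2 and Plac8, came to 1.499, 0.834 and 0.286 CPM in wild-type samples 1 to 3 and to 0.132, 0.305 and 1.43 CPM in the knockout, and their part in the Ccr2 level was not tested. The most abundant of them, Vcan, had at most 14 reads in any sample. Red cell genes lay highest in knockout samples 1 and 2, with Hbb-bs, a beta globin, at 2892 and 752 reads there against 8 or fewer in each of the other 4 samples.

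Markers of the cells best known for Ccr6 were also set beside it. The T and NK cell list summed to 9.61 to 17.7 CPM in the wild type and 34.95 to 75.38 CPM in knockout, nearly all of it Il7r, the interleukin-7 receptor, at 13.7 ± 4.05 CPM in the wild type and 56.8 ± 20.5 CPM in knockout. The other 13 genes of that list, among them Cd3d, Cd3e and Trac, had at most 2 reads in any sample. The B cell list summed to 973 to 1495 CPM in the wild type and 1092 to 1352 CPM in knockout, mostly Ighm, which was at 1045 and 1122 CPM on average. Cd79b, part of the B cell receptor complex, was at 96.4 ± 38.6 CPM and 95.2 ± 32.1 CPM, and Cd22, a B cell lectin, had 0, 0 and 285 reads against 41, 11 and 756. Ms4a1 and Pax5 had at most 1 read in a sample. Dendritic cell genes summed to 63.2 to 123.5 CPM in the wild type and 30.4 to 74.1 CPM in knockout, and the most abundant of them, Batf3, a transcription factor, was at 35.3 ± 4.39 and 30.3 ± 3.22 CPM. Il7r was higher in every knockout sample than in any wild-type sample, as Ccr6 was, and the part of other cell types in the level of Ccr6 was not tested.

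Markers of further cell types were low or uneven and are given as summed levels. Border-associated macrophage genes, led by the mannose receptor Mrc1, ranged from 0.437 to 95.8 CPM in the wild type and from 0.254 to 10.2 CPM in knockout. Neutrophil genes, led by S100a9, stayed under 3.30 CPM in each sample. Neuron genes, led by Rbfox3, reached 6.96 CPM in knockout sample 1, and astrocyte genes, led by Aqp4, reached 1.94 CPM in wild-type sample 1. Oligodendrocyte genes, led by Cnp, ranged from 47.4 to 378.8 CPM in the wild type and 109.1 to 215.1 CPM in knockout, and endothelial genes, led by Pecam1, from 28.5 to 179.7 and 27.2 to 61.6 CPM. In bulk samples, more cells of a type and more RNA per cell cannot be told apart.

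Cxcr4, the receptor for Cxcl12 (chromosome 1, 128588199 to 128592293, minus strand), was not detectable at this depth. It had 0 reads in 5 samples and 1 read in knockout sample 2, all under the limit of 3 reads.

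Ccrl2, the chemerin-binding receptor (chromosome 9, 111054486 to 111057519, minus strand), overlapped between genotypes. Wild-type samples 1 to 3 were at 55.5, 0.596 and 31.9 CPM, and knockout samples at 53.5, 34.0 and 15.1 CPM. Wild-type sample 2, with 15 reads, stood far below the other 5 samples, which had 433 to 1215 reads. The fitted log2 fold change came to 0.22 (standard error 1.46), and it turned to -0.32 without wild-type sample 2 and to -0.25 without knockout sample 1.

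Cmklr1, the chemerin receptor (chromosome 5, 113612354 to 113650426, minus strand), was detected in every sample at 459 to 1046 reads. It was at 92.2, 21.1 and 32.7 CPM in the wild type and 41.5, 23.3 and 21.2 CPM in knockout. All knockout values lay inside the wild-type range, whose top was wild-type sample 1. The fitted log2 fold change came to -0.76 (standard error 0.97), and without wild-type sample 1 it was 0.10.

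**Figure D3:**
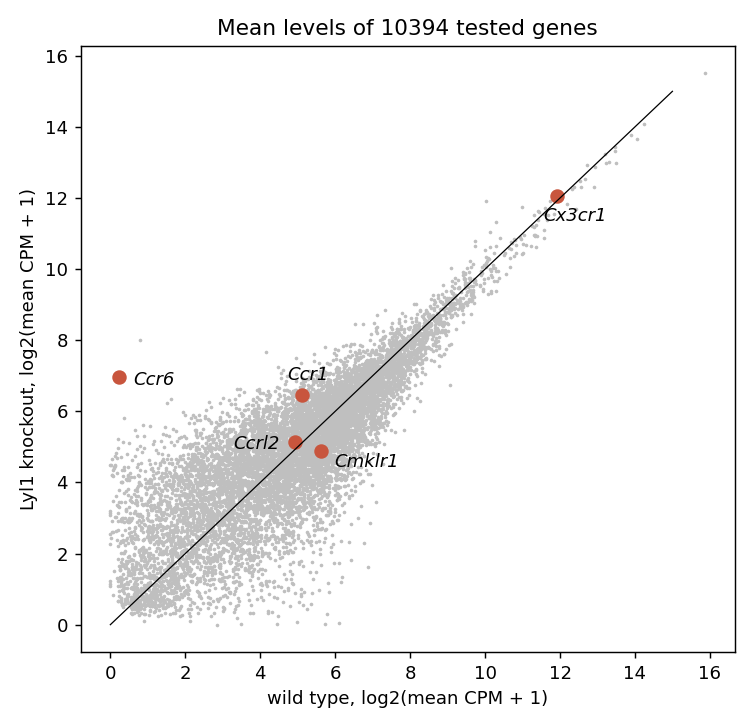
Mean level in knockout against mean level in wild type for the 10394 tested genes (grey), both as log2(mean CPM + 1), with the 5 tested chemokine receptors in red and the line of equal levels. Ccr6 lies far above the line at a wild-type mean of 0.173 CPM and a knockout mean of 123.2 CPM, and the other 4 receptors lie within the cloud of genes.

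Of the 7 receptors, 5 passed the filter on low counts, and Ccr6 passed it through the knockout samples alone. Among these 5, edgeR's quasi-likelihood test called 0 at an adjusted p under 0.05, where 0% of all 10394 tested genes were called. At an unadjusted p under 0.05 there was 1, Ccr6, beside 2.84% of all tested genes. Without the filter edgeR called 1 member, Ccr6, beside 0.0364% of genes, and DESeq2 called the same 1 of the tested genes, beside 0.523%, and among all genes with a read, beside 1.04%. Limma-voom called 0, beside 0%. Nothing is read from these counts, since the set was chosen with this contrast known. Genotypes did not overlap for 1 of the 5, Ccr6, against 5.97% of all tested genes that were higher in knockout without overlap. Of the 5, 4 were higher and 1 lower in knockout, beside 48.7% and 51.3% of all tested genes. The median log2 fold change of the 5 was 0.22, beside -0.03 over all tested genes.

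**Figure D4:**
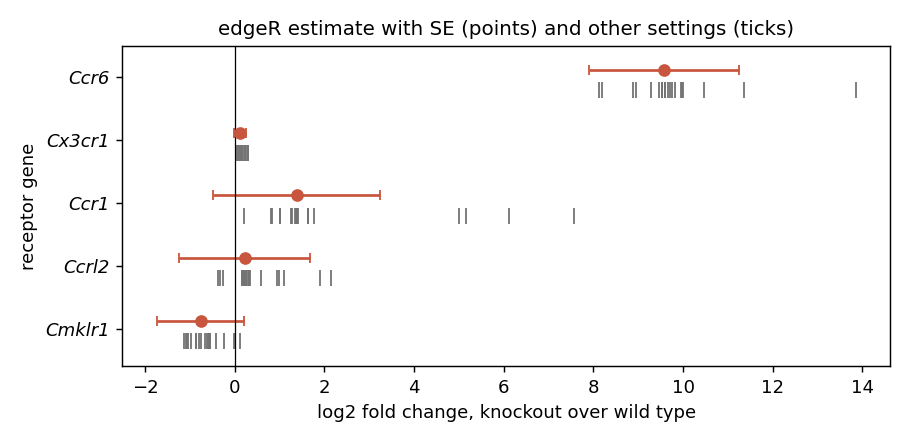
Log2 fold change of knockout over wild type for the 5 tested receptors, with the edgeR estimate and its standard error in red and each of 20 other settings as a grey tick. Ccr6 stays between 8.12 and 13.85, Cx3cr1 stays close to 0, and Ccr1 spreads from 0.21 to 7.56.

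Ordered by CPM per kilobase of annotated exon, so that genes can be compared, Cx3cr1 stood alone at the top of the wild type at 866.8 ± 22.7. Cmklr1 at 14.3 ± 11.2, Ccr1 at 11.9 ± 20.3 and Ccrl2 at 11.3 ± 10.6 followed and did not differ beyond their spread. Ccr6 at 0.0747 ± 0.101 and Ccr2 at 0.00826 ± 0.00719 were at the limit of detection, and Cxcr4 was at 0. In knockout Cx3cr1 was again first at 942.6 ± 135.6. Ccr6 came next at 53.1 ± 35.1, then Ccr1 at 31.0 ± 17.4, Ccrl2 at 13.2 ± 7.40 and Cmklr1 at 8.41 ± 3.27, with each of these neighbours overlapping in its samples. Ccr2, at 0.503 ± 0.494, and Cxcr4 were last. Across the 6 samples the other tested receptors had Pearson r with Ccr6 of -0.27 for Cmklr1, 0.34 for Ccrl2, 0.35 for Cx3cr1 and 0.59 for Ccr1, on log2(CPM + 1), as a description of these libraries.

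Other chemoattractant receptors mostly had few or no reads in these cells. Of 27 listed, 9 had no read and 8 passed the filter, of which 2 were higher and 6 lower in knockout. By edgeR 0 of the 8 were called, beside 0% of all tested genes. An unadjusted p under 0.05 was reached by 0, beside 2.84%, and genotypes without overlap were found for 0, beside 11.2%. The median log2 fold change was -0.39. The complement receptors C3ar1 and C5ar1 were at 469.3 ± 186.8 and 193.0 ± 94.2 CPM in the wild type and 353.4 ± 175.2 and 149.7 ± 15.7 CPM in knockout. Ptafr, which binds platelet-activating factor, was at 127.3 ± 37.1 and 125.4 ± 23.6 CPM. Of the smallest p-values in this list, Xcr1, a dendritic cell receptor, had 0, 1251 and 50 reads in the wild type and 4, 0 and 18 in knockout, and Cxcr5, a receptor of follicular lymphocytes, 111, 12 and 156 against 39, 20 and 11.

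Receptors next to Ccr1 on chromosome 9 were uneven between samples as well. They are named here after their values were seen. Ccr1l1, a Ccr1-like gene that begins at 123977243, had 0, 1 and 191 reads in the wild type and 1, 0 and 537 in knockout. Ccr3, the eotaxin receptor, which begins at 124021972, had 1, 1 and 309 reads and 0, 0 and 349. Both exceeded 1 read in wild-type sample 3 and knockout sample 3 and in no other sample, while Ccr1 was also present in knockout samples 1 and 2. No 50-base stretch of the Ccr1 transcripts occurs in another annotated gene.

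Among ligands of the 7 receptors, 6 of 14 passed the filter, of which 5 were lower and 1 higher in knockout. None was called by edgeR (0 higher and 0 lower, adjusted over all tested genes), and at an unadjusted p under 0.05 there were 3 lower and 0 higher, beside 1.67% and 1.16% of all tested genes. Genotypes did not overlap for 2, both lower, beside 5.19%. The list's median log2 fold change was -0.97. Ccl6, a ligand of Ccr1 in mouse, was at 498.6 ± 150.9 CPM in the wild type and 214.6 ± 47.8 CPM in the knockout, with a log2 fold change of -1.22 and a standard error of 0.33 (edgeR, adjusted p = 0.9999). Ccl9, also a ligand of Ccr1, was at 436.2 ± 206.3 and 189.7 ± 58.0 CPM, and Ccl12, a ligand of Ccr2, at 190.6 ± 29.3 and 105.0 ± 18.5 CPM. Ccl3 and Ccl4 were at 345.4 ± 103.2 and 140.9 ± 64.7 CPM in the wild type and at 287.9 ± 125.5 and 165.9 ± 109.5 CPM in knockout. The ligands of Ccr6 and Cmklr1, Ccl20 and Rarres2, had 0 reads in every sample, and Cx3cl1 had 17 reads in wild-type sample 3 and 0 elsewhere, all 3 named after their values were seen.

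Of 38 genes of receptor signalling and desensitisation, 33 passed the filter, 14 higher and 19 lower in knockout, with a median log2 fold change of -0.15. By edgeR 0 were called, an unadjusted p under 0.05 was reached by 2 lower and 0 higher genes, beside 1.67% and 1.16% of all tested genes, and genotypes did not overlap for 3, all lower, beside 5.19%. Rgs10, which speeds up the shut-off of G proteins, was at 1613 ± 341 CPM in the wild type and 1072 ± 52.3 CPM in knockout (log2 fold change -0.59, standard error 0.19, edgeR adjusted p = 0.9999). Gnb2, a G protein beta subunit, was at 260.8 ± 86.1 and 141.2 ± 32.2 CPM, and Gnai2, the inhibitory alpha subunit through which these receptors signal, at 1216 ± 268 and 807.4 ± 213.3 CPM. Rgs2, a further brake on G proteins, and Vav1, an activator of small GTPases, were at 1802 ± 123 and 644.7 ± 153.5 CPM in the wild type and 1629 ± 284 and 484.6 ± 93.7 CPM in knockout. Stat3, a transcription factor of cytokine signalling, lay the other way at 66.8 ± 65.2 and 209.0 ± 60.5 CPM, with its genotypes overlapping.

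**Figure D5:**
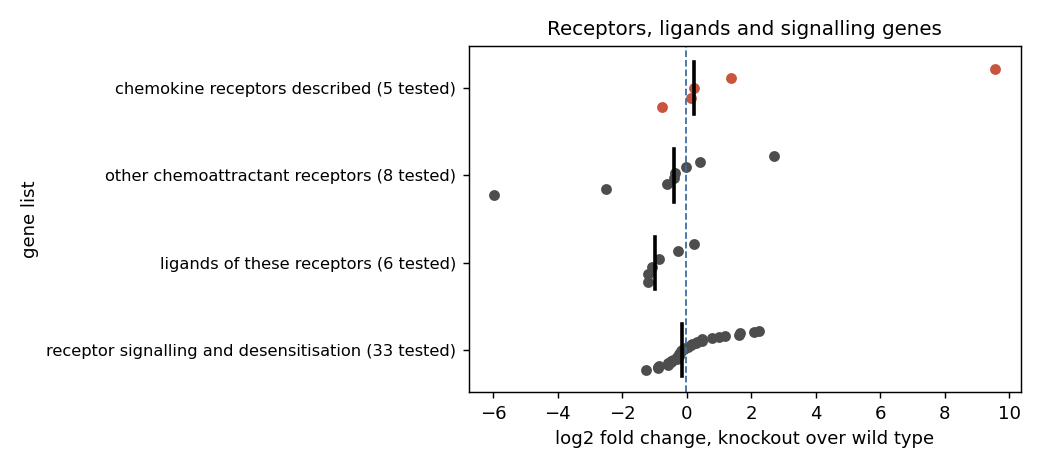
Log2 fold changes of knockout over wild type for the tested genes of 4 lists, 1 point per gene, with the list's median as a black bar and the median of all tested genes as a dashed line at -0.03. Ccr6, at 9.57, lies far to the right of all other points, and the ligands lie mostly left of the line.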

How the data were processed

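Polyadenylated RNA of about 1000 sorted microglia per sample was turned into cDNA from 0.3 to 1 ng of total RNA with 14 or 15 PCR cycles and sequenced as single reads of 50 cycles, per the labels' protocols. The kit does not mark strand. The table the authors deposited holds unnormalized read counts by symbol. The submitters' processing notes list GRCm38, featureCounts 1.5.1, Subread, STAR 2.5.2b, limma 3.28.21 and CASAVA 1.8.2, with no role. The annotation used for counting, and its strand setting, are among the details not given in the sources used here.

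Reads of the 92 ERCC spike-ins were left out. Genes were kept by filterByExpr of edgeR 4.0.16 (minimum count 10, minimum total 15), which left 10394 of 22005 genes with a read, scaled by TMM and tested by the quasi-likelihood F test, 2-sided, in R 4.3.3, with genotype alone in the fit, Benjamini-Hochberg adjustment over all tested genes and a threshold of 0.05. Tested on simulated data, the fit recovered changed genes where the spread was set low, but with the spread of these samples it called hardly any of them, so a count of 0 calls here does not show that genes did not change. P-values measure the spread between samples, which may be technical. Alternatives were other scalings and filters, DESeq2 1.42.0, limma-voom (limma 3.58.1), a replicate block, depth or sex as a covariate, subsets and each sample left out. Positions, exons and transcripts are those of GENCODE M21 on GRCm38.

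The members and lists were chosen with earlier results of these data known. Named were the members, Lyl1, the 4 most abundant and the 3 with the smallest p of each pathway list, the 5 genes most like Ccr6, its neighbours, 4 microglia markers and the most abundant gene of each other marker list. Some genes that this rule takes are not reported here. Others are said to be named after their values were seen, or stand as members of a marker list.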

Additional observations from a re-analysis of the deposited data

Results flagged for a closer look

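The spike-in sequences, which no comparison uses, held reads in every sample, from 21 to 66 per sample, above the limit of 3 reads that a count of 0 allows. The labels' protocols name no spike-in.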

How the results depend on the processing

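Ccr6 kept its direction under all 20 alternatives, with log2 fold changes from 8.12 to 13.85, and from 8.89 to 11.36 with 1 sample left out. The highest rests on wild-type sample 3, with 0 reads. Ccr6 was the 1 receptor called without the filter, by DESeq2 on the tested genes and by DESeq2 on all genes with a read, and since it was chosen on this contrast these calls are a description. Over the whole table these 3 settings called 3, 34 and 97 genes higher and 5, 18 and 40 lower, where the other settings called 0, and no other pathway gene was called in any setting. Cx3cr1 (0.05 to 0.30) and Ccr1 (0.21 to 7.56) kept their direction. Ccrl2 turned to -0.37 in the 3 samples with the most genes, -0.32 without wild-type sample 2 and -0.25 without knockout sample 1 (up to 1.09 with other samples left out, 1.90 with limma-voom and 2.15 with depth as a covariate), and Cmklr1 to 0.10 without wild-type sample 1 (-1.13 without knockout sample 1 and -0.024 with depth as a covariate). The cause was not tested. Upper-quartile and library-size scaling shifted the median gene by 0.14 and 0.11. Samples with the same number did not deviate together (r of 0.001, -0.013 and -0.040 over 6523 genes). Samples of unlike number had r of -0.009 to 0.03. In libraries this uneven, values near 0 cannot exclude a pairing. With a replicate block 0 genes were called, 0 of them receptors, 98 higher and 73 lower genes had an unadjusted p under 0.05, and the log2 fold change of Ccr6 was 9.95. Sex as a covariate, called by Y-linked reads above those of Xist and added after the data were seen, gave 8.19 for Ccr6. Ccr2 and Cxcr4 are limited by depth.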
